A study of Danio rerio with 6 samples.

Results

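The zebrafish embryo passes from maternal to embryonic control between the 256-cell stage and the sphere stage, and the tRNA reads of these 2 stages are compared here. The 256cell library and the sphere library are 2 of 6 libraries, with 1 library per stage, from wild-type (WT) eggs or embryos of the TU strain, with no treatment named in the labels. The others are mature egg, 1cell, shield and 24hpf (24 hours after fertilisation). Each RNA came from a pool of about 50 to 100 whole eggs or embryos, so every value is an average over a pool and has no replicate check. RNA of 60 to 120 nt was cut from a gel, bound amino acids were removed, RNA ends were repaired with a kinase, and base methylation was treated with several ALKB proteins before the libraries were made. The comparison covers all 3021 listed cytoplasmic read sequences under 38 anticodon labels and all 22 mitochondrial tRNAs, in RPM, the reads of an entry scaled to a fixed library size, and as a share of the total of their table. Whole embryos hold all their cell types, and tRNA reads carry no cell type markers: more cells of a type and more RNA per cell cannot be told apart, and the stage labels could not be checked against marker genes. Values given in stage order run from egg through 1cell, 256cell, sphere and then shield to 24hpf. No test was possible with 1 library per stage: differences are described by size, and each interval is a 95% interval for counting error only, which is too narrow because PCR copies are not independent molecules.

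Zygotic genome activation is the switch at which the embryo's own genome starts to be transcribed broadly and stored maternal RNA is cleared. Transfer RNAs are transcribed by RNA polymerase III from many near-identical gene copies, trimmed, given a CCA tail at the 3′ end and modified at many bases. Copies that share an anticodon but differ elsewhere are called isodecoders. Some modified bases are misread by reverse transcriptase, so that a modification can leave a base change in the read. N1-methyladenosine at position 58, in the T loop, and N2,N2-dimethylguanosine at position 26, between the D arm and the anticodon arm, are well-known cases, and ALKB mixtures are used to take such methyl groups off. A base change in a read can thus come from another gene copy, from a modification or from an error, and these cannot be told apart here.

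The reads on which the comparison turns are printed first. Positions are counted back from the last A of the CCA tail, which is 76. Reads were laid without gaps on the most abundant CCA read of their label, extended to the 5′ side. A read with a D loop of another length would thus show several substitutions in that loop. On the 5′ side of the variable loop these numbers put the anticodon at positions 34 to 36 in Asn-GTT, Arg-ACG, Val-AAC and some other labels, and in the rest, His-GTG among them, they differ from the standard tRNA numbering. The leading base at a position is the one with the highest mean RPM of the 2 libraries among the reads that cover it. It need not be the base of the gene. A substitution is written with the leading base of that label, the position and the base found. In reads of Asn-GTT, the asparagine tRNA, capitals mark positions 25 and 26, and the 3 most abundant forms are shown by their leading read.
Asn-GTT with both leading bases, 67 nt: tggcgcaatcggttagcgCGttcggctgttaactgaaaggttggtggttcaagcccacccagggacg
Asn-GTT with G26T, 61 nt: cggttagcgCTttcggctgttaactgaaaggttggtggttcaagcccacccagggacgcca
Asn-GTT with C25T, 61 nt: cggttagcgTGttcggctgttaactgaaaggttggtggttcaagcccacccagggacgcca
The next reads stand for the other labels and forms whose share was clearly larger or smaller at sphere. Capitals mark the anticodon in Lys-TTT, position 26 in Arg-ACG, positions 63 and 69 in Gln-CTG, position 17 in Gly-GCC and position 66 in His-GTG, and the Asp-GTC read is shown for its early 3′ end, at position 64.
Lys-TTT, 63 nt: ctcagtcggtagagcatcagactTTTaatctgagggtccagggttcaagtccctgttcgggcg
Arg-ACG with T26G, 67 nt: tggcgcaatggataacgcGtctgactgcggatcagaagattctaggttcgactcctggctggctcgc
Gln-CTG with C63T and A69G, 64 nt: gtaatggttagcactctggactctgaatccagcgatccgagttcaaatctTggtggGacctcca
Gln-CTG with both leading bases, 64 nt: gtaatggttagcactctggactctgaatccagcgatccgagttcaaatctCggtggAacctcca
Gly-GCC with G17A, 67 nt: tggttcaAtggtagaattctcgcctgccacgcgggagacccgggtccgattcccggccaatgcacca
His-GTG with T66C, 63 nt: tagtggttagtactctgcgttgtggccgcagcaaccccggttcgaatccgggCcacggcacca
Asp-GTC ending at 64, 63 nt: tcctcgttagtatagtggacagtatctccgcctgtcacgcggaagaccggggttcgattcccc

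The 256cell library held 3324546 reads and the sphere library 5892692, so 1 read is worth 0.301 RPM in the first and 0.170 RPM in the second. The cytoplasmic table held 56.5% of the 256cell library and 53.3% of the sphere library. By the mitochondrial values as deposited, 19.4% and 26.6% were in neither table. The share of the table total is the main measure, and its log2 ratio of sphere to 256cell is called the log2 difference below, computed after adding 1 RPM. A positive value means a larger share at sphere. Against the share, the median log2 difference over anticodons shifts by -0.08 when RPM is used as deposited, by -0.20 with median-ratio scaling, by -0.28 with trimmed-mean scaling and by -0.27 when His-GTG is left out of the total. An anticodon's share difference between 0 and 0.20 thus falls below 0 with median-ratio scaling. One between 0 and 0.27 does so with trimmed means or without His-GTG.

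Asparagine tRNA and a lysine tRNA with few reads were the anticodons that stood out as higher at sphere. The filter was a 6-library mean of 10 RPM or more. Of the 35 anticodons that passed it, 2 were at least 2-fold higher in share at sphere (5.71%) and 0 at least 2-fold lower (0%), and 31 lay within 0.5 of 0 on the log2 scale. By share the median log2 difference was 0.16, with 26 anticodons above 0 and 9 below. That median was -0.03 with median-ratio scaling and -0.12 with trimmed means, so the balance around 0 depends on the scaling. The counting interval lay above 0 for 16 and below 0 for 5, which describes the reads of these 2 libraries only.

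Lys-TTT, which reads the lysine codons AAA and AAG, is represented in the table by the single 63-nt read printed above, which has no CCA tail. Its levels were 7.33, 16.9, 11.4, 87.4, 107 and 26.3 RPM in stage order. The 3 earlier libraries lay below the 3 later ones, and sphere and shield stood highest. From 256cell to sphere it went from 38 to 515 reads, a log2 difference of 2.91 (interval 2.54 to 3.53). The other lysine tRNA, Lys-CTT, had far more reads, with 14496 RPM at 256cell and 18121 RPM at sphere, and its log2 difference was 0.41.

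Asn-GTT had levels of 1154, 3115, 1038, 2666, 2398 and 408 RPM in stage order. The level at sphere was thus not the highest of the series: 1cell stood above it, and 256cell lay beside egg. The log2 difference from 256cell to sphere was 1.44 (1.39 to 1.50), or 1.36 in RPM, and with 1cell in place of 256cell it was -0.56. The share of the cytoplasmic reads went from 0.184% to 0.500%.

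Arg-ACG, an arginine tRNA, followed at 0.53, from 2967 to 4041 RPM. Asp-GTC, the aspartate tRNA and the second most abundant label, was at 0.50, from 15733 to 20958 RPM. Val-AAC was at 0.48, with 418 and 551 RPM, and Ser-AGA also at 0.48, with 74.9 and 98.6 RPM. All 6 anticodons written with A as their first base lay above 0 by share, with a median of 0.40, but His-ATG and Leu-AAG, at 0.14 and 0.12, went to -0.06 and -0.07 with median-ratio scaling. The median of 0.40 stands beside 0.14 for first base C, 0.14 for G and 0.17 for T. In vertebrate tRNAs such an A is commonly deaminated to inosine, which pairs with U, C and A and is read as G. Arg-ACG, Asp-GTC, Val-AAC and Ser-AGA stayed above 0 in all 5 scalings tried. With 1cell in place of 256cell they did not all do so: Arg-ACG was then at -0.49, Asp-GTC at -0.14 and Ser-AGA at -0.20, and Lys-CTT at -0.13.

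Both glutamine tRNAs were at the low end, in contrast to asparagine, the other amide amino acid. Gln-TTG had 1699 RPM at 256cell and 1039 RPM at sphere, a log2 difference of -0.63 (-0.68 to -0.57). Gln-CTG had 8997 and 6187 RPM, at -0.46 (-0.48 to -0.43). In RPM egg had held more of both, with 1828 RPM of Gln-TTG and 11038 RPM of Gln-CTG. At 1cell they had 1322 and 7052 RPM, between 256cell and sphere. By share 1cell lay slightly above 256cell: the log2 ratio of 256cell to 1cell was -0.06 for Gln-TTG and -0.07 for Gln-CTG. The log2 ratio of 1cell to egg by share was 0.18 and 0.004. Val-CAC, with 44.8 and 35.1 RPM, was at -0.26 (-0.58 to 0.05), Pro-TGG at -0.22, Ser-GCT at -0.20 and Leu-CAA at -0.11. Both glutamine labels, Val-CAC, Pro-TGG, Ser-GCT and Leu-CAA were below 0 in all 5 scalings.

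**Figure D1:**
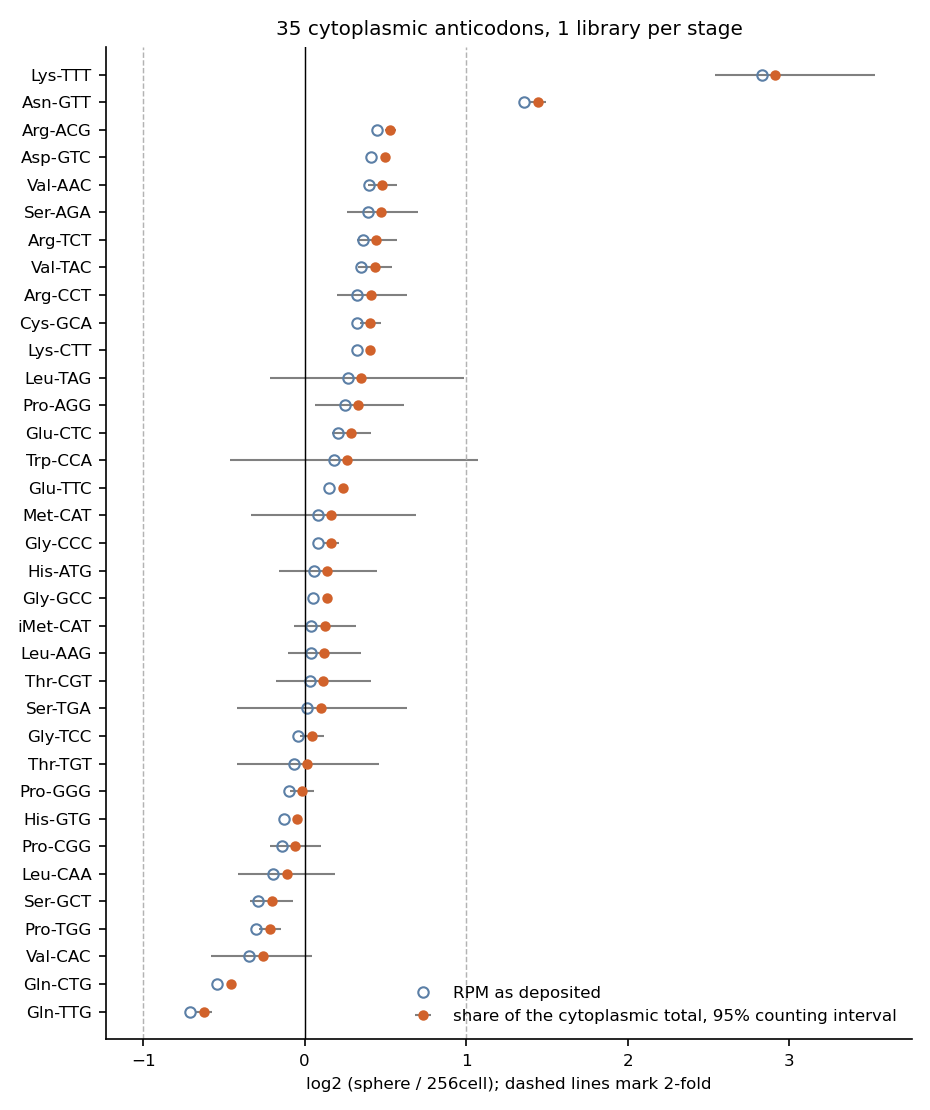
The plot of anticodon differences gives the log2 ratio of sphere to 256cell on the x axis for the 35 anticodons past the filter, with filled points for the share and its 95% counting interval and open points for RPM. Lys-TTT and Asn-GTT lie beyond the 2-fold line at 2.91 and 1.44, and the lowest point is Gln-TTG at -0.63.

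The most abundant label, His-GTG, had 492091 RPM at 256cell and 450268 RPM at sphere, which is 87.1% and 84.4% of the cytoplasmic reads and a log2 difference of -0.05. Its 5 most abundant reads are nested copies of one sequence that start at positions 12 to 17 and end in CCA, and their log2 differences ran from -0.32 to 0.12. Among tRNAs whose 5′ fragments are known from other work, Glu-CTC was at 0.29, Glu-TTC at 0.24, Gly-CCC at 0.16 and Gly-GCC at 0.14. The 9 members of that list (the 4 just named with Asp-GTC, His-GTG, Val-AAC, Val-CAC and Lys-CTT) had a median of 0.24, beside 0.16 over all 35, and 0 of them were past 2-fold. The initiator iMet-CAT, which starts protein chains, had 103 and 106 RPM and a difference of 0.12 (-0.07 to 0.32).

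Summed by amino acid, 1 of 17 isotypes was past 2-fold, Asn at 1.44. Arg at 0.52 and Asp at 0.50 came next, and Gln at -0.48, Pro at -0.10 and His at -0.05 were lowest. By chemistry of the amino acid, the 7 basic anticodons had a median of 0.41 with 1 past 2-fold (Lys-TTT), the 6 branched 0.24, the 3 acidic 0.29, the 3 sulphur-containing 0.16, the 3 small 0.14, the 5 hydroxyl 0.10 and the 4 proline anticodons -0.04. The summed share of the basic group went the other way (-0.03), since His-GTG makes up most of it. The 3 amide anticodons had a median of -0.46 with Asn-GTT as the one member past 2-fold. The only aromatic member past the filter, Trp-CCA, was at 0.26 with an interval from -0.46 to 1.08, and the 6 type II tRNAs, those of Leu and Ser with a long variable arm, had a median of 0.11.

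Within Asn-GTT the difference was unequal between the forms printed above. Splitting reads by base was decided after the values had been seen, as were the other splits by position below. The form with both leading bases had levels of 22.5, 153, 21.96, 812, 425 and 73.03 RPM in stage order. It stood highest at sphere and was lowest in egg and at 256cell. From 256cell to sphere it went from 73 to 4783 reads, a log2 difference of 5.23 (4.96 to 5.65). The G26T form had 529.7 RPM at 256cell and 1169 at sphere, a difference of 1.22 (1.15 to 1.30). The C25T form had 378 and 573 RPM, a difference of 0.68 (0.59 to 0.78), and was the form that led at 1cell, with 2258 RPM. The form with both leading bases thus went from 2.28% to 31.5% of the Asn-GTT reads that cover both positions, while C25T went from 39.3% to 22.2%.

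Among Asn-GTT reads with the leading base at 25, the share that also had the leading G at 26 was 3.92% at 256cell (3.09 to 4.91) and 40.8% at sphere (39.9 to 41.7). Egg, at 4.35%, was as low as 256cell, while 1cell had 25.7%, shield 23.2% and 24hpf 30.9%. Among reads with C25T the share with G at 26 was 93.9% at 256cell (92.5 to 95.2) and 97.7% at sphere (97.2 to 98.2). Most of these reads thus carried the leading base in both libraries, with a somewhat larger share at sphere.

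Asn-GTT reads also differed in length and in their 3′ end. Asn-GTT reads of 60 to 65 nt went from 993 to 1927 RPM, those of 66 to 69 nt from 42.4 to 653 RPM, and those of 70 nt and over from 2.71 to 85.9 RPM. The log2 differences were 1.04, 4.00 and 4.63. Reads of 66 nt or longer made up 41.1% of the form with both leading bases at 256cell and 83.8% at sphere, and 0% of the G26T form in both. The 3′ ends are given for Asn-GTT reads of all forms that could be laid. Those that end with CCA went from 787 to 1506 RPM (1.02) and those that end at 74 from 31.0 to 405 RPM (3.75). Those that end at 73, before the whole tail, went from 11.4 to 345 RPM (4.88). The laid reads with CCA were 75.8% of the label at 256cell and 56.5% at sphere. With the reads that could not be laid counted too, the share of all Asn-GTT reads with CCA was 82.2% at 256cell and 59.03% at sphere. The sphere library held Asn-GTT reads that reach further towards the 5′ end, lack part or all of the tail and show no substitution at 26, which were rare at 256cell. A 70-nt read with both leading bases and the whole tail was also rare at 256cell, with 0.602 RPM, and had 80.8 RPM at sphere.

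Reads of equal length can be set side by side. There were 5 pairs of Asn-GTT reads with the same ends that differ by G26T alone. In the 61-nt pair with the highest RPM, the G26T read went from 70.7 to 295 RPM (2.13) and its partner from 3.91 to 85.0 RPM (4.21). In the 62-nt pair the values were 19.6 to 97.2 RPM and 2.71 to 41.4 RPM. The remaining 3 pairs had differences between -0.73 and 0.54, so not all Asn-GTT reads were higher. The G read had the larger log2 difference in 4 of the 5 pairs. Most of the G reads were rare at 256cell, with 13 and 9 reads in the pairs given above and 2.71 and 2.11 RPM in others. This tally thus rests on few reads.

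**Figure D2:**
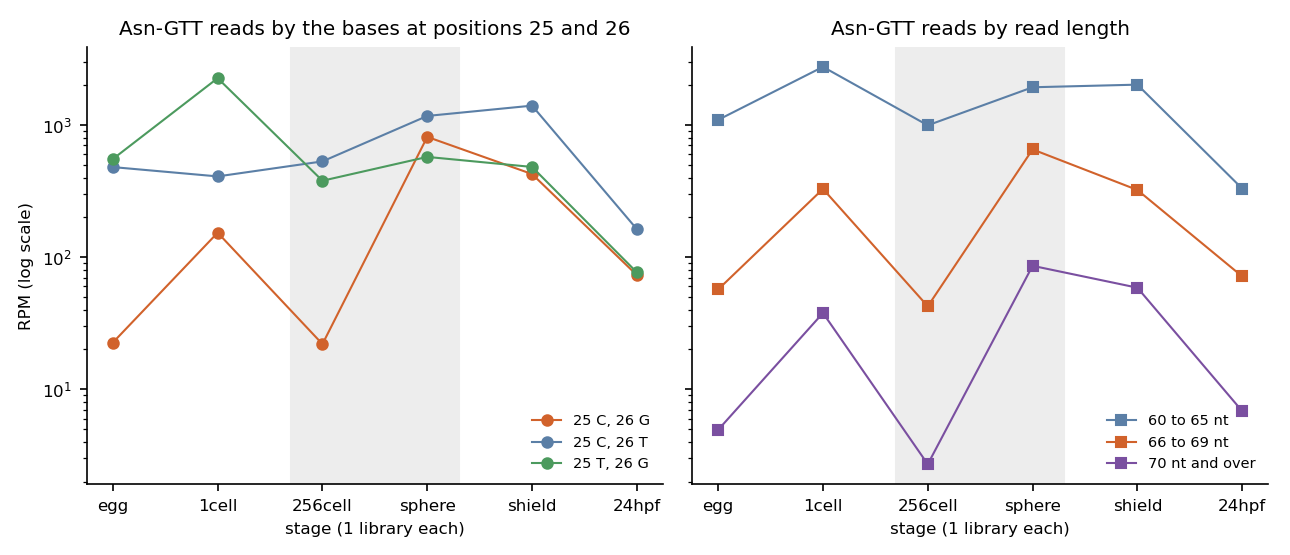
The plot of Asn-GTT reads shows RPM on a log scale over the 6 stages, with 256cell and sphere shaded: reads by the bases at positions 25 and 26 on the left and by read length on the right, 1 library per point. The form with both leading bases goes from 21.96 to 812 RPM across the shaded step, more than either other form, and reads of 66 nt and over go up more than reads of 60 to 65 nt.

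Sites were then compared across all labels. Of 1433 sites covered by at least 100 RPM on the mean of the 2 libraries, in 21 anticodons, 16 (1.12%) had a base whose share of the covering reads moved by at least 5 percentage points, and they lay in 9 anticodons. Asn-GTT held 6 of them, at positions 16, 17, 19, 20, 25 and 26. Neighbouring sites of 1 label move together when the same reads carry them, so these are not separate events.

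Position 26 of Arg-ACG moved in the same direction as that of Asn-GTT, with a larger share of G at sphere in both. G is the leading base in Asn-GTT and T in Arg-ACG, so the same move is written as a substitution only in Arg-ACG. The T26G reads, printed above, went from 804 to 1630.0 RPM, a log2 difference of 1.10 (1.04 to 1.16), and from 30.3% to 44.4% of the reads that cover the site. Reads with the leading T went from 1454 to 1622.01 RPM (0.24) and T26A reads from 390.4 to 413 RPM (0.16). Over all 6 libraries, G at 26 made up 30.8%, 61.1%, 30.3%, 44.4%, 49.5% and 64.2% of the covering reads in stage order. The 1cell share, with 2546 RPM, thus stood above sphere, and 256cell lay beside egg. At 24hpf there were 2599.8 RPM. Val-AAC was the remaining label in which bases other than the leading one made up at least 1% at position 26 in both libraries. It had G in 90.0% of its reads at 256cell and 91.8% at sphere, a small move in the same direction. The counting intervals overlapped, which does not show that the shares were equal.

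Position 58 gave a smaller and mostly upward movement. The site was counted in 21 anticodons with A leading, and in 6 of them other bases made up over 1% of the reads in either library. In 5 of these 6 that share was larger at sphere, with counting intervals apart. It went from 5.06% to 6.30% in His-GTG, from 2.54% to 3.86% in Lys-CTT, from 15.5% to 16.2% in Gly-GCC, from 9.24% to 12.6% in Gly-TCC and from 1.97% to 3.09% in Gly-CCC. In Asn-GTT it went from 6.35% to 4.41%. The sphere values were not the highest of the series: egg had 16.9% in Gly-GCC, 12.98% in Gly-TCC and 4.19% in Gly-CCC, and shield had 4.65% in Lys-CTT and 6.69% in His-GTG. In Lys-CTT the A58T reads went from 221 to 426 RPM and the A58G reads from 145 to 269 RPM, log2 differences of 1.03 and 0.97, against 0.39 for reads with the leading A. No file gives the extent of the ALKB treatment per library, and its part in the shares at positions 26 and 58 was not tested.

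Other labels differed in the proportions of their forms more than in their sums. Gly-CCC, a glycine tRNA, had 1621 RPM at 256cell and 1713 at sphere in sum. Its reads with the leading T at 39 went from 776 to 1159.6 RPM (0.66), while T39C reads went from 845 to 554 RPM (-0.53), so that T39C was the majority form at 256cell, with 52.1%, and not at sphere, with 32.3%. The egg and 1cell libraries, with 41.7% and 43.0%, lay between. Cys-GCA, the cysteine tRNA, had 833 and 1043 RPM in sum. Its T20C reads with the leading C at 51 went from 96.9 to 292 RPM (1.67), while reads with the leading T at 20 and C51T went from 265 to 198 RPM (-0.34). In Glu-TTC, the main glutamate tRNA, C29T reads went from 1469 to 2161 RPM (0.64), and the others from 10548 to 11194 RPM (0.17).

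Gln-CTG was lower in each of its 4 forms, but by unequal amounts. The form with both leading bases went from 4143 to 3384 RPM (-0.21), the A69G form from 2929 to 1760.5 RPM (-0.65), the C63T form from 264 to 124 RPM (-1.005) and the form with C63T and A69G from 668 to 161 RPM (-1.96, interval -2.08 to -1.86). The last of these had 481 RPM in egg, 426 at 1cell, 97.3 at shield and 75.3 at 24hpf, so that the 3 earlier libraries lay above the 3 later ones. Reads of Gln-CTG that end with CCA went from 7416 to 4766 RPM, while those that end at 75, one base short, went from 579 to 658 RPM.

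**Figure D3:**
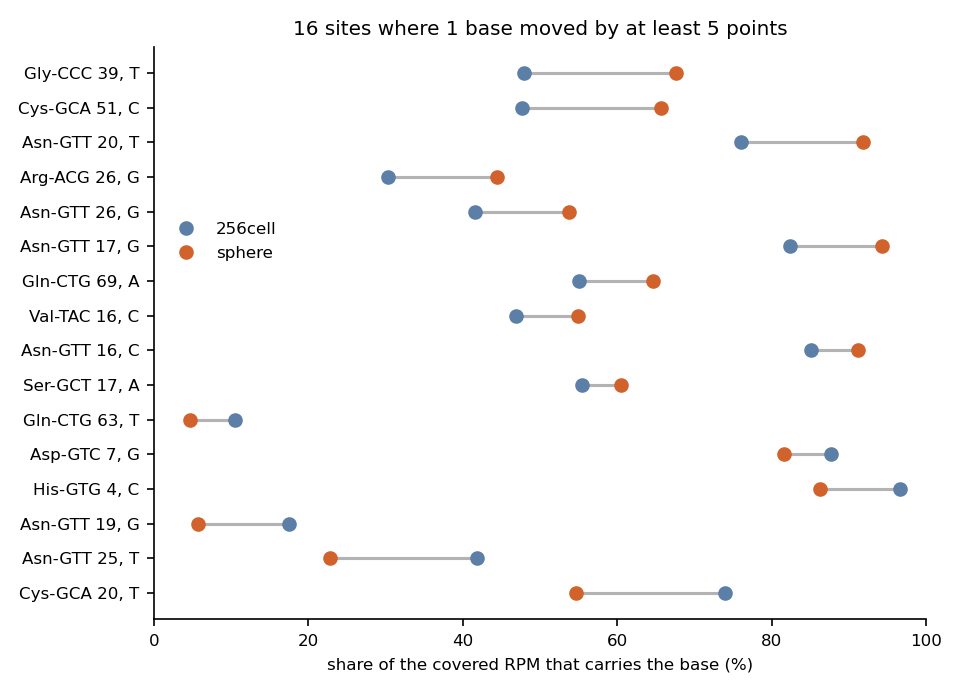
The plot of sites shows, for the 16 sites with a move of at least 5 points, the percentage of the covering RPM that carries the base named beside the position, at 256cell and at sphere, 1 library each. G at position 26 lies further right at sphere in Arg-ACG (30.3% and 44.4%) and in Asn-GTT (41.6% and 53.7%).

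Some forms were several-fold lower at sphere, with a pattern over the series that did not follow the order of stages. The Gly-GCC reads with G17A had levels of 390.0, 28.4, 358, 39.5, 28.7 and 8.46 RPM in stage order. The His-GTG reads with T66C had levels of 605, 80.4, 664, 108, 138 and 159 RPM in stage order. In both, egg and 256cell were high and the other 4 libraries low, with no overlap. The log2 differences from 256cell to sphere were -3.06 (-3.30 to -2.89) for Gly-GCC G17A and -2.53 (-2.67 to -2.41) for His-GTG T66C. The rest of Gly-GCC, the reads with the leading G at 17, had 8461 RPM at 256cell and 9066 RPM at sphere, at 0.18. The reverse was seen in His-GTG reads with T21A, with 1228 RPM at 256cell and 2491 at sphere, and in those with A59T, with 842 and 1756 RPM; egg held 4229 and 2351 RPM of them. Each stage is 1 pool of eggs or embryos, so stage and pool cannot be told apart.

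The 3′ ends of the reads were compared for all labels. Leaving out His-GTG, where CCA ends made up 94.7% of the reads at 256cell and 94.0% at sphere, the share of reads with a CCA end was 51.03% at 256cell (50.8 to 51.2) and 44.97% at sphere (44.8 to 45.1). It had been 61.5% in egg and 50.3% at 1cell and was 40.1% at shield and 40.7% at 24hpf. Reads that end at 74 went from 19.8% to 24.2% and those that end at 73 from 15.3% to 17.4%. Asp-GTC reads mostly end at 74 and Lys-CTT reads mostly at 73, both labels were higher at sphere, and the part of the label make-up in these shares was not tested. Within labels, the share with CCA was lower at sphere with counting intervals apart in Asn-GTT, as given above, in Ser-GCT (61.98% and 52.8%), in Gln-CTG (82.4% and 77.03%), in Arg-ACG (48.003% and 43.9%) and in Lys-CTT (13.5% and 12.2%). The same held by smaller amounts in Gly-GCC (90.4% and 88.6%), Asp-GTC (21.4% and 20.7%) and Gln-TTG (99.3% and 98.7%). It was higher in Pro-TGG (88.01% and 91.5%), and in Glu-TTC the intervals overlapped (60.1% and 60.6%).

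The sphere library held fewer of the aspartate tRNA reads with the earliest 3′ ends. The Asp-GTC reads that end at positions 60 to 66 had levels of 564, 734, 571, 163, 193 and 132 RPM in stage order. The 3 earlier libraries all lay above the 3 later ones. From 256cell to sphere the log2 difference was -1.71 (-1.83 to -1.61), and it was -2.48 for the read that ends at 62 and -2.07 for those that end at 64. Asp-GTC reads that end later went the other way in sum, from 771 to 1038 RPM (0.51) for ends at 67 to 72. For ends at 74 they went from 10083 to 14180.3 RPM (0.57). Within the first of these classes, the few reads that end at 67 and 68 were lower at sphere, from 10.2 to 6.96 RPM and from 4.81 to 0.679 RPM.

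**Figure D4:**
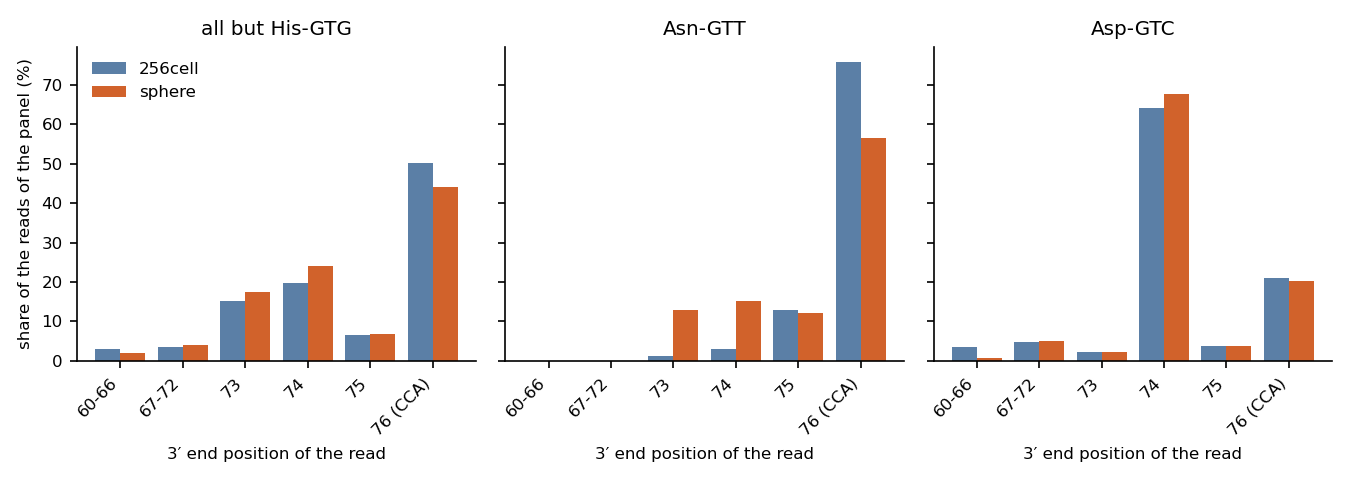
The plot of 3′ ends gives the percentage of reads by the position of their last base at 256cell and at sphere, 1 library each, for all labels but His-GTG, for Asn-GTT and for Asp-GTC. In Asn-GTT the bars at 73 and 74 are larger at sphere and the bar at 76 is smaller, and in Asp-GTC the bar at 60 to 66 is smaller at sphere.

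Of the 1913 single read sequences past the filter, 154 (8.05%) were at least 2-fold higher in share at sphere and 54 (2.82%) at least 2-fold lower. Other scalings move this balance: with RPM as deposited 120 were higher and 61 lower, median-ratio scaling gave 97 and 79, trimmed means gave 106 and 73, and a total without His-GTG gave 57 and 53. By share, the calls were spread unevenly over the labels: 21 of 46 Asn-GTT reads and 21 of 70 Arg-ACG reads were among the higher, as were 59 of 1008 His-GTG reads and 15 of 132 Asp-GTC reads. Of the lower, 20 belonged to the 96 Gln-CTG reads and 19 to His-GTG. Many reads of a label are copies of 1 form with other ends, so these counts do not stand for as many tRNAs. The filter mean includes both libraries compared, so a read can pass it through its level in one of them. The uneven spread is thus a description only. By length, the higher reads were 19 of 74 at 70 nt and over and 126 of 1714 at 60 to 67 nt, which was not tested. Reads without CCA had a median log2 difference of 0.34 and reads with CCA one of 0.05. By first base the medians were 0.17 for A, 0.22 for C, 0.08 for G and 0.12 for T.

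Reads of 70 nt and over made up 0.409% of the cytoplasmic reads at 256cell and 0.656% at sphere, a log2 difference of 0.68. Most came from Asp-GTC, with 1069 and 1641 RPM, and from Glu-TTC, with 479.8 and 820.2 RPM. In RPM the egg library held 5197 of such reads and 1cell 3596, so 256cell, at 2308, was low beside both. Sphere, at 3499.6 RPM, was close to 1cell in RPM only. The cytoplasmic total was smaller at 1cell, with 423167 RPM, than at sphere, with 533277 RPM, so by share 1cell lay further above sphere.

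Of the reads with a 6-library mean of 100 RPM or more, 15 of 357 were past 2-fold higher and 7 past 2-fold lower. The highest was an Asn-GTT read of 61 nt with G26T, printed above, from 70.7 to 295 RPM (2.13). It was followed by a His-GTG read with T21A from 92.3 to 240.3 RPM (1.45), an Arg-ACG read of 66 nt from 41.2 to 105 RPM (1.41), and His-GTG reads with A59T of 64 nt (1.26) and 62 nt (1.22). The lowest was a 62-nt His-GTG read with T66C, from 219.6 to 40.6 RPM (-2.33), and then came the Asp-GTC read that ends at 64, from 155 to 33.9 RPM (-2.07). The next were Gln-CTG reads with A69G of 60, 63 and 65 nt, at -1.16, -1.10 and -1.07.

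Mitochondrial tRNAs serve protein synthesis inside the mitochondrion and are cut from long transcripts of the mitochondrial genome. Their total was 241621 RPM at 256cell and 200850 RPM at sphere, a log2 difference of -0.27. In the sum of both tables they made up 30.0% at 256cell and 27.4% at sphere, and with His-GTG left out of the cytoplasmic total 76.9% and 70.8%. These percentages take a read to count the same in both tables, which the read numbers at the end of this paragraph put in doubt. In RPM 17 of the 22 were lower at sphere and 5 higher. Within the mitochondrial total 0 of 22 (0%) were at least 2-fold higher or lower, and the median was 0.11. For all of them but trnN the recovered read numbers were even in both libraries. Cytoplasmic labels had odd numbers too, such as 1391 and 3249 reads of Val-AAC. If a read was entered more than once for the tRNAs with even numbers, their counting intervals are too narrow and trnN is in another unit. The mitochondrial percentages above would then be too high, and the share of trnN and the percentages in neither table too low. This was not tested.

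By gene order, trnV led with 109016 RPM at 256cell and 86704 RPM at sphere (-0.06). It was grouped with trnF at 0.20 and trnL1 at 0.27 as tRNAs that flank the ribosomal RNA genes. The labels do not say which leucine tRNA is trnL1, so the places of trnL1 and trnL2 are assumed. In the next group trnM, with 2244 and 2305 RPM, was at 0.31, trnQ at 0.22 and trnI at -0.11. In the group of trnW, trnA, trnN, trnC and trnY the members parted. The asparagine tRNA trnN went from 10816 to 11641 RPM (0.37, interval 0.35 to 0.39), trnW was at 0.14, trnY at -0.17, trnC at -0.37 and trnA, from 2273 to 1348 RPM, at -0.49 (-0.53 to -0.44). The median of that group was -0.17 while its summed share was at 0.22, since trnN makes up most of it. Between the genes of cytochrome oxidase subunit 1 and NADH dehydrogenase subunit 5, trnS1 was at 0.68 (0.19 to 1.25, with 13.2 and 17.99 RPM), trnD at 0.52, trnK at 0.17, trnG at 0.15, trnR at 0.08, trnS2 at 0.06, trnL2 at -0.01 and trnH at -0.04. Around cytochrome b, trnT was at 0.18, trnE at -0.02 and trnP at -0.07. Leaving out trnS1 and trnS2, the 13 tRNAs listed as heavy-strand coded in vertebrates had a median of 0.15 and the 7 light-strand coded ones -0.07, while their summed shares went the other way, at -0.02 and 0.19.

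Mitochondrial and cytoplasmic tRNAs of 1 amino acid can be set side by side, each within its own total. Asparagine was higher in both, with trnN at 0.37 and Asn-GTT at 1.44, as was aspartate, with trnD at 0.52 and Asp-GTC at 0.50. By share, glutamine was at 0.22 in the mitochondrion and below 0 in both cytoplasmic tRNAs, but in RPM trnQ was at -0.05, so that all 3 were lower at sphere. Cysteine and valine went opposite ways by share. Cys-GCA was at 0.41 with trnC at -0.37, and the cytoplasmic valine sum was at 0.43 with trnV at -0.06. These are examples, and the other amino acids were not set side by side.

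**Figure D5:**
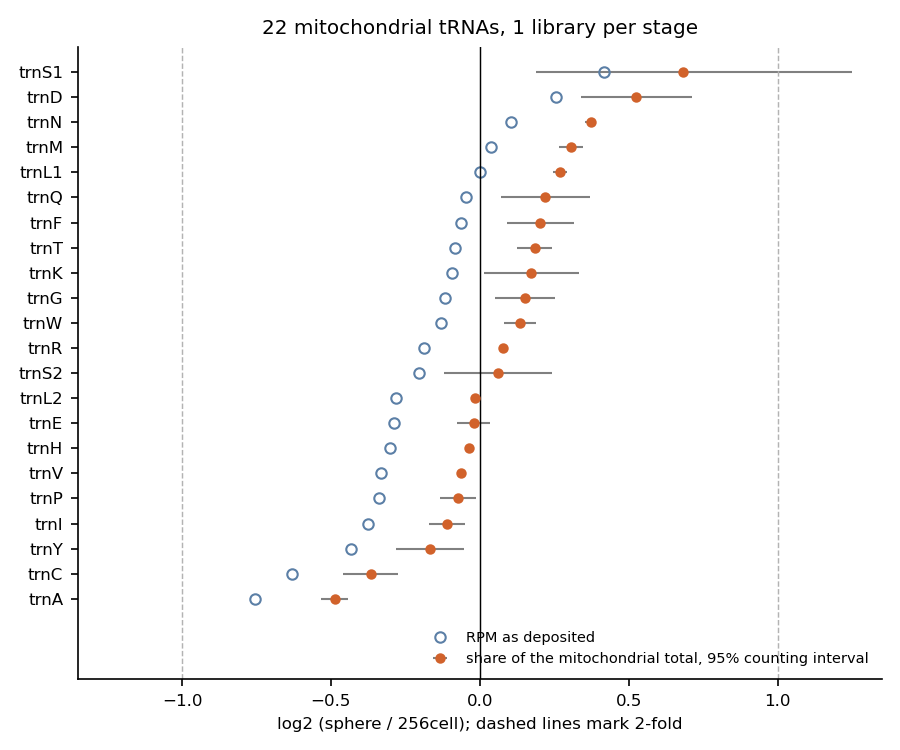
The plot of mitochondrial tRNAs gives the log2 ratio of sphere to 256cell on the x axis for all 22, with filled points for the share of the mitochondrial total and its 95% counting interval and open points for RPM. All points lie inside the 2-fold lines, with trnS1 highest at 0.68 and trnA lowest at -0.49 by share.

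By median size in share, the step from 256cell to sphere was small beside most others. The median size of the log2 difference over the 35 anticodons was 0.91 from egg to 1cell, 0.48 from 1cell to 256cell, 0.26 from 256cell to sphere, 0.61 from sphere to shield and 0.71 from shield to 24hpf. Over the 1913 reads the sizes were 0.66, 0.39, 0.33, 0.37 and 0.93 in the same order, and over the 22 mitochondrial tRNAs 0.64, 0.52, 0.17, 0.17 and 0.24. The number of sites with a base moved by at least 5 points was 22, 22, 16, 19 and 26. Reads past 2-fold made up 31.0%, 16.2%, 10.9%, 9.20% and 47.5%, so sphere to shield was lower on that count. The signed anticodon medians were 0.91, -0.48, 0.16, -0.61 and -0.66. In the other steps the sizes were thus largely a shift of most anticodons in one direction against the total. This order was not tried with other scalings. Neighbouring steps share a library, so these sizes are given side by side and were not tested.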

How the data were processed

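The deposited tables hold RPM values made by the authors for each listed cytoplasmic read sequence and each mitochondrial tRNA. The submitters' processing notes name cutadapt 3.4, Bowtie2 2.4.2 and GRCz11, with no role given, and how sequences were chosen for listing is not given in the sources used here. All RPM values were whole multiples of 1 read within 0.01 reads, which gave library totals of 7096801 (egg), 6094181 (1cell), 3324546 (256cell), 5892692 (sphere), 4211882 (shield) and 6148047 (24hpf) reads.

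RPM values were summed by anticodon and amino acid, 1 RPM was added, and sphere was divided by 256cell after division by each library's table total. Features were counted at 2-fold with a 6-library mean of 10 RPM. Shares have exact Clopper-Pearson intervals and ratios exact binomial intervals, both for counting error. With 1 library per stage no p-value was computed. Reads were laid on the most abundant CCA read of their label, extended to the 5′ side, with up to 5 substitutions and 50 nt of overlap. Bases that reach beyond it counted as substitutions. Asn-GTT reads with both leading bases that start at 8 and 6 thus counted 3 and 5, and reads that reach further could be left out of the forms. This step, the form and 3′ end classes and the limit of 5 points were chosen after values had been seen, and the comparison and its lists were chosen with earlier results of these data known. Named were the 10 most abundant anticodons, the 6 highest and 6 lowest, all past 2-fold, the 3 highest and 3 lowest amino acids, the 5 most abundant, highest and lowest reads (the last 2 from 100 RPM), the donors of 5′ fragments, iMet-CAT and all mitochondrial tRNAs. Other reads and forms were named after their values were seen. Alternatives were the scaling (trimmed means by edgeR 4.0.16 in R 4.3.3), the pseudocount, the filter, the CCA end and the neighbouring libraries. The steps were tested on simulated data and run with Python 3.11.15, numpy 2.4.6, pandas 2.3.3, scipy 1.17.1 and matplotlib 3.10.9.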

Additional observations from a re-analysis of the deposited data

How the results depend on the processing

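Asn-GTT stayed at least 2-fold higher at sphere in 11 other settings of scaling, pseudocount, filter and read end (log2 1.01 to 2.32) and Lys-TTT in the 9 that could hold it (2.27 to 3.01). Gln-TTG (-0.90 to -0.59), Gln-CTG (-0.74 to -0.39), Arg-ACG (0.25 to 0.53) and Asp-GTC (0.19 to 0.50) kept their direction in these settings. The 2 higher anticodons became 1 with a filter of 100 RPM or with CCA reads alone, both of which leave out Lys-TTT, and the 0 lower ones became 1 with reads not ending in CCA (Pro-TGG, -1.01). With trimmed means computed over amino acid sums 0 amino acids were higher and 1 lower, and Asn, the same reads as Asn-GTT, was at 0.68 (Asn-GTT was at 1.16 with trimmed means over anticodons). Single reads, 154 higher and 54 lower, became 57 higher without His-GTG, 97 higher with median-ratio scaling, 63 and 28 with a pseudocount of 10 RPM, 284 and 102 without a filter, 15 and 7 with a filter of 100 RPM, and 28 and 16 among reads not ending in CCA. The mitochondrial part of the listed reads was at -0.13, -0.27 in RPM and -0.12 without His-GTG, with a read taken to count the same in both tables.

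The neighbouring libraries were tried after seeing the data. With 1cell in place of 256cell, 1 anticodon was higher and 2 lower, reads numbered 50 and 153, 1 mitochondrial tRNA was higher (trnD, 1.05), and Asn-GTT turned to -0.56. Arg-ACG (-0.49), Asp-GTC (-0.14), Ser-AGA (-0.20) and Lys-CTT (-0.13) also went below 0, as did trnN (-0.15), trnM (-0.54) and trnS1 (-0.44), while trnA went to 0.21. With shield in place of sphere, 3 anticodons and 160 reads were higher, 7 anticodons and 203 reads were lower, and Asn-GTT was at 0.83. The cause was not tested. The 16 sites became 14 with up to 2 substitutions, 11 at 1000 RPM and 15 with CCA reads. The limit of 2 substitutions also leaves out the long Asn-GTT reads with both leading bases, whose first bases counted as substitutions. No paired analysis was possible because each stage has 1 library and the labels carry no replicate numbers. Depth limits rare labels: 3 reads are worth 0.902 RPM at 256cell and 0.509 RPM at sphere.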
